A study of Caenorhabditis elegans with 4 samples.

Results

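The ZHP-3 binding sites of chromosome II of the nematode Caenorhabditis elegans are the peaks that 3 deposited chromatin immunoprecipitation sequencing (ChIP-seq) lists place on that chromosome. Chromosome II held 935 of 6537 peaks in replicate 1, 886 of 6086 peaks in replicate 2 and 1809 of 11798 peaks in a list for the whole series, called the combined list here. Members were chosen by chromosome name alone, with no filter on width or score. The study measured 2 ZHP-3 ChIP samples and 2 input samples. All 4 came from hermaphrodite worms of the strain fem-2(b245), genotype fem-2(b245)III, at 20 °C, described as young adults that contain a germline. The growth protocol speaks of gravid adults, and this difference was not resolved. Chromatin came from whole worms, so germline and body cells were mixed. The antibody was an affinity-purified rabbit polyclonal against ZHP-3. The labels do not say whether the replicates came from separate cultures, so the spread between them may be technical. The input samples were not analysed here.

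ZHP-3 belongs to the RING-finger proteins and acts in meiosis. It loads along the synaptonemal complex, the protein axis that joins paired homologous chromosomes, and later gathers at the sites that become crossovers. Worm chromosomes have no single centromere and use a pairing centre near 1 end to find their partner. On chromosome II this centre lies at the left end and is bound by the zinc-finger protein ZIM-1. Crossovers in this species fall mainly on the chromosome arms and rarely in the centre. The gene fem-2, which all samples carry in mutant form, promotes male development, including the making of sperm.

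The right side of chromosome II carried more ZHP-3 peaks than the left side in both replicates, and the end with the pairing centre had fewer peaks than the opposite end. In density, the pairing centre end was closer to the rest of its own arm than to the opposite end. A stretch from 90% to 95% of the chromosome's length was the fullest in each replicate. Most peaks recurred between replicates, at nearly the same position, and the recurring sites were separated by gaps of up to 149.6 kb. With 1 group of 2 replicates, no test between samples was possible. Every value below is a description, with the spread between the replicates where there is one. Coordinates are on WormBase WS220. No sequence or gene annotation of that build was used here, so the sites carry no gene names.

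On chromosome II, peak density was 61.2 peaks per Mb in replicate 1 and 58.0 in replicate 2. The other 5 nuclear chromosomes together had 65.9 and 61.2 peaks per Mb in the same replicates. Chromosome II is 15.24% of the nuclear length spanned by the lists and held 14.3% and 14.56% of the nuclear peaks. In the combined list the densities were 118.4 peaks per Mb on II and 117.5 on the other chromosomes. Peaks of II had a median width of 420 bp in replicate 1 and 427 bp in replicate 2, against 404 bp and 401.5 bp elsewhere. They covered 3.55% and 3.20% of the chromosome, or 543.1 kb and 489.3 kb. None of these differences from the other chromosomes was tested.

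Replicate 1 and replicate 2 found largely the same sites on II. In replicate 1, 692 of 935 peaks (74.0%) overlapped a peak of replicate 2 by at least 1 bp, against 73.4% over all nuclear chromosomes. In replicate 2, 724 of 886 peaks (81.7%) met a peak of replicate 1, and the share over all nuclear chromosomes was also 81.7%. Recurrence on II was thus close to that of the genome as a whole. Overlapping peaks merged into 1073 regions, and 668 of them (62.3%) contained peaks from both replicates, against 61.9% over all nuclear chromosomes. These 668 shared regions are the sites described along the chromosome. They spanned 497.2 kb, 3.25% of II, with a median width of 517 bp and quartiles of 415.75 and 732 bp. Their density was 43.7 per Mb on II and 46.7 per Mb on the other chromosomes.

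The shared regions were mostly simple. A single peak of each replicate made up 617 of the 668. In 31, a single replicate 1 peak matched several of replicate 2, in 11 the reverse held, and 9 had several of both. Within the 617 pairs, the midpoints lay a median of 25.5 bp apart, and 552 pairs (89.5%) lay within 100 bp. The median distance is small beside the peak widths, but pairs were chosen by overlap, which by itself keeps each distance below the mean of their widths. Across the 617 pairs, the Spearman correlation of the caller's scores was 0.75, as was that of the widths. These correlations describe pairs on 1 chromosome that share their library, and no p was computed.

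Recurrence followed the score. Within the lowest of 10 score classes, the share of peaks that recurred was 24.7% for replicate 1 and 50% for replicate 2. In the sixth class the shares were 91.5% and 90.9%, and in the highest 98.9% and 100%. Median width also differed, from 231 bp in the lowest class to 1255 bp in the highest in replicate 1. In replicate 2 it went from 221 to 956 bp. Wider peaks meet a 1 bp overlap more easily, and score and width were not separated. The lists of II start at scores of 50.08 and 50.2, so a weaker partner could not be seen. Peaks without a partner had median scores of 78.65 in replicate 1 and 82.06 in replicate 2, while paired peaks had 260.3 and 232.9. The scale of the score is not stated in the files, so it ranks peaks within 1 list only. In each replicate 23 peaks of II shared the highest score of the chromosome, 3100, so the order at the top is tied.

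**Figure D1:**
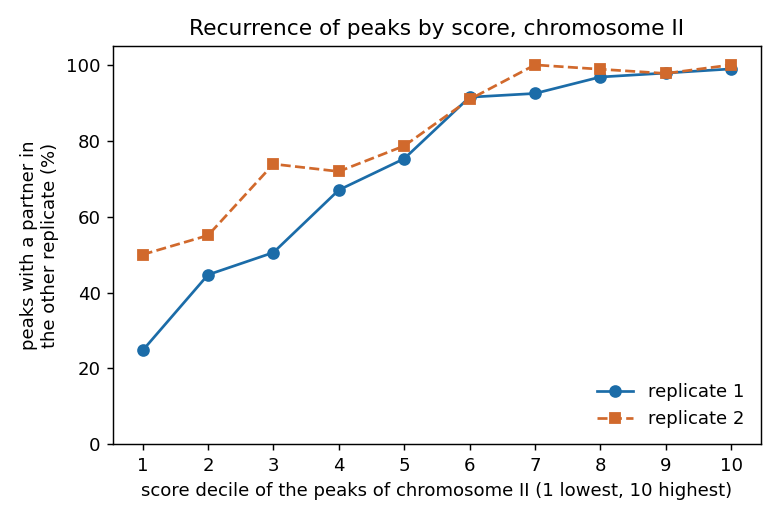
Share of chromosome II peaks with an overlapping peak in the other replicate (vertical axis, %) by score class of the peak (horizontal axis, 10 classes of equal size, 1 the lowest), as circles for replicate 1 and squares for replicate 2. The share was 24.7% and 50% in the lowest class and 98.9% and 100% in the highest.

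A few strong peaks nevertheless lacked a partner. In replicate 1 the strongest were a 1306 bp peak in the centre (6185183 to 6186488, score 988.58), a 680 bp peak in the centre (8575057 to 8575736, score 825.40) and a 673 bp peak on the right arm (12198125 to 12198797, score 821.86). The nearest replicate 2 peaks were 10303, 5279 and 3885 bp away. The next, at 16914 to 18133 on the left arm with a score of 420.47, lay 143 bp from a replicate 2 peak. Last of the 5, a peak at 2997737 to 2998329, scored 406.64. In replicate 2 the 2 strongest were a 1038 bp peak on the left arm (3796396 to 3797433, score 612.98) and a 1225 bp peak in the centre (6888285 to 6889509, score 612.22). The others in replicate 2 were at 2570253 to 2571026 (score 367.51), 10390178 to 10390769 (229.69) and 13675294 to 13675731 (224.44). All 10 overlapped a peak of the combined list. Over all peaks of II without a partner, 234 of 243 in replicate 1 and 155 of 162 in replicate 2 did so. The same shares over all nuclear chromosomes are not given here, so nothing particular to II is read from them.

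For the view along the chromosome, II was divided into 3 equal parts of 5.09 Mb, the left arm, the centre and the right arm. The left arm held 293 peaks in replicate 1 and 269 in replicate 2, or 55.2 ± 3.33 peaks per Mb (SD, n = 2). The centre held 284 and 275 peaks, or 54.9 ± 1.25 per Mb (SD, n = 2). The right arm held 358 and 342, or 68.7 ± 2.22 per Mb (SD, n = 2). Both replicates of the right arm, at 70.3 and 67.1 peaks per Mb, were above both replicates of the other parts, while the left arm and the centre overlapped. Shared regions followed the same order at the top, with 196 on the left arm, 205 in the centre and 267 on the right arm. The right arm was also fullest in the combined list, at 134.9 peaks per Mb, against 108.6 on the left arm and 111.7 in the centre.

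Arms were compared with the centre because crossovers in this species are mostly on arms. Crossovers themselves were not measured here, and any link of peak density to them was not tested. Both arms together had 1.15 times the centre's density in replicate 1 and 1.11 times in replicate 2, a mean ratio of 1.13 ± 0.025 (SD, n = 2). On the other nuclear chromosomes this ratio ran from 1.13 to 1.22 in replicate 1 and from 0.94 to 1.18 in replicate 2. The ratio of II thus lay within the range of the others. Of the arms of II, only the right one was denser than the centre in both replicates by more than their spread. With the centre bounded at 5 Mb and 12 Mb, rounded from the known recombination domains of the chromosome, the ratio was 1.10 in replicate 1 and 0.99 in replicate 2. Under those bounds the left arm had 53.8 ± 4.24 peaks per Mb, the centre 58.2 ± 0.106 and the right arm 71.4 ± 4.31 (SD, n = 2 each). The ratio of right arm to left arm was 1.22 and 1.27 in the replicates and 1.36 in shared regions. For shared regions the same ratio was 1.25 on X and 1.14 on V, and from 0.93 to 0.98 on I, III and IV. In replicate 1 it was 1.23 on V and 1.18 on X, and in replicate 2 it was 1.12 on both. On I, III and IV it ran from 0.86 to 0.99 in replicate 1 and from 0.96 to 1.04 in replicate 2. Whether II differs from these was not tested.

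**Figure D2:**
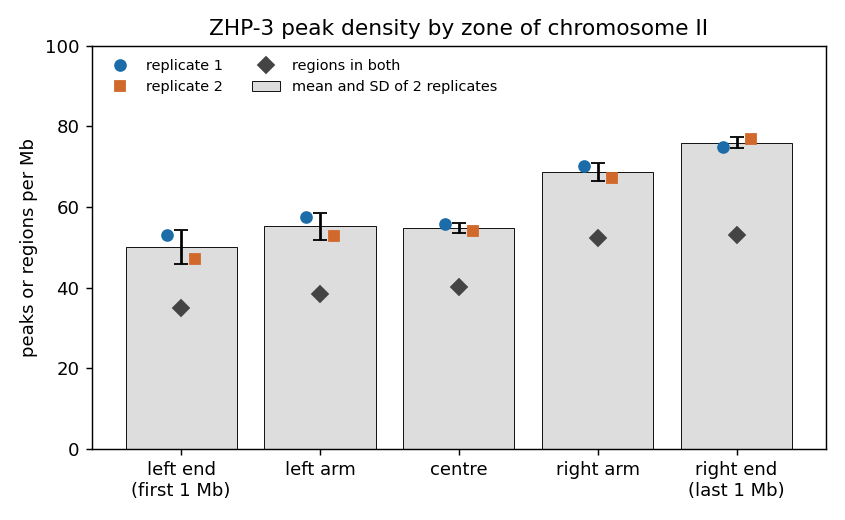
Peaks per Mb (vertical axis) in 5 zones of chromosome II, of which the left end and the right end are the outermost 1 Mb of the arms. Bars and error bars are the mean and SD of 2 replicates, circles and squares the replicates, and diamonds the shared regions. The right end reached 76.0 peaks per Mb and the left end 50.

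The ends of the chromosome differed in number of peaks. The first 1 Mb of II held 53 replicate 1 peaks and 47 replicate 2 peaks, with a mean of 50 ± 4.24 per Mb (SD, n = 2). The last 1 Mb held 75 and 77, a mean of 76.0 ± 1.41 per Mb (SD, n = 2). The ratio of left end to right end was 0.71 and 0.61, a mean of 0.66 ± 0.068 (SD, n = 2), and both counts at the left end were below both at the right end. Part of the right end's count came from a single stretch. Its window from 14.3 to 14.4 Mb held 18 of the replicate 1 peaks and 22 of the replicate 2 peaks. The right end also overlaps the fullest stretch, from 90% to 95% of the length, and the 1 Mb end ratio without that stretch was not computed. In the outermost 5% of the length at each end, which leaves that stretch out, the contrast was smaller. The left held 42 peaks in replicate 1 and 33 in replicate 2, and the right held 52 and 45. Beside the left end's 53 and 47 peaks per Mb, the rest of the left arm had 58.6 in replicate 1 and 54.2 in replicate 2. Shared regions covered 2.95% of the left end, 2.93% of the rest of the left arm and 2.98% of the centre. Low counts were not limited to the left end: the window from 7 to 8 Mb, in the centre, had 48 and 47 peaks and 32 shared regions. Shared regions numbered 35 at the left end and 53 at the right end and covered 29.48 kb and 46.17 kb. Strong sites were present at both ends nonetheless. At the left end 3 shared regions had the score 3100 in both replicates, at 451591 to 452815, 693647 to 699235 and 855905 to 858019. At the right end 4 did, at 14835516 to 14838177, 14877559 to 14879822, 14991301 to 14994248 and 15137764 to 15142943.

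At the left tip every list had a peak from base 1. It was 430 bp wide in replicate 1 (score 370.17, percentile 72.1 of the peaks of II), 454 bp in replicate 2 (score 1267.07, percentile 92.9) and 434 bp in the combined list (score 59.87, percentile 90.9). The second shared region lay at 16019 to 16892, with scores of 268.08 and 142.85, and the third at 18789 to 19288, with scores of 249.37 and 287.55. The fifth and sixth shared regions, at 66345 to 66810 and 140430 to 140697, were 73.6 kb apart. Shared sites were not sparse near this tip: the 100 kb windows from 0, 0.1 and 0.2 Mb held 5, 3 and 5, against a median of 4 along II. At the other tip the outermost shared regions were at 15215859 to 15216114 (scores 73.54 and 68.26), 15217800 to 15218065 (85.43 and 89.25) and 15262985 to 15263492 (419.47 and 193.83). Beyond them, a peak at 15279022 to 15279348 was present in the combined list alone, with a score of 32.39. Among the 808 combined-list peaks of II found in neither replicate, this peak had the highest score. Its last base was taken as the end of II here, so its place at the very end follows from that choice.

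Finer windows showed that part of the right arm's excess lay in a single stretch. In 20 windows of 5% of the chromosome, 0.764 Mb each, the window from 90% to 95% (13751414 to 14515380) was the fullest in both replicates. It held 80 peaks in replicate 1 and 79 in replicate 2, or 104.7 and 103.4 peaks per Mb. In the same replicates the next fullest window had 57 and 59 peaks, the median window 45 and 43, and the emptiest 35 and 30. The fullest window also held 64 of the 668 shared regions (9.58%), against 44 in the next. In the combined list it was not the fullest, with 121 peaks, against 128 in the fullest window. Without it, the right arm had 64.2 peaks per Mb in replicate 1 and 60.75 in replicate 2, still above the left arm and the centre of the same replicate. This window was singled out after its values were seen.

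**Figure D3:**
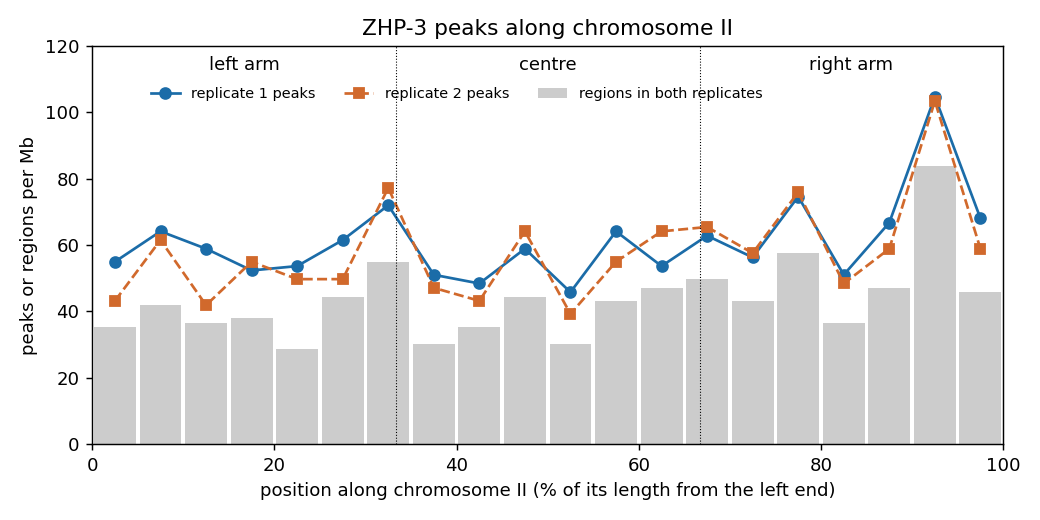
Density (vertical axis, per Mb) along chromosome II in 20 windows (horizontal axis, % of the length from the left end). Circles are replicate 1 peaks, squares replicate 2 peaks and grey bars shared regions, and dotted lines divide left arm, centre and right arm. The replicates rise together to 104.7 and 103.4 peaks per Mb at 90% to 95%, and the lowest windows hold 45.8 and 39.3.

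In windows of 100 kb, 153 in all, the median was 4 shared regions and the quartiles were 3 and 6. Counts of replicate 1 and replicate 2 peaks had a Spearman correlation of 0.78 across these windows, which neighbour each other on 1 chromosome. The fullest windows were 13.8 to 13.9 Mb and 14.3 to 14.4 Mb, with 14 shared regions each, and 10.5 to 10.6 Mb with 13. All 3 lie on the right arm. The window at 14.3 Mb had 18 peaks in replicate 1 and 22 in replicate 2, and the one at 13.8 Mb had 16 and 15. Of the 7 windows with 10 or more shared regions, 2 were on the left arm, 1 in the centre and 4 on the right arm. Counted by midpoint, windows with no shared region numbered 5, of which 2 were on the left arm (from 2.6 and 3.7 Mb) and 3 in the centre (from 7.2, 7.9 and 8.3 Mb). A shared region centred in the window before reached 375 bp into the one from 2.6 Mb. The window from 8.3 to 8.4 Mb had no peak in either replicate and 4 in the combined list.

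Neighbouring shared regions were a median of 11.5 kb apart, with quartiles of 2.48 and 31.0 kb. The spacing was wide, from 101 gaps under 1000 bp (15.1% of 667) to 17 of at least 100 kb. Gaps on the right arm had a median of 9.09 kb, against 14.8 kb on the left arm and 14.5 kb in the centre. Of the 100 gaps over 50 kb, 38 were on the left arm, 33 in the centre and 29 on the right arm. The longest, 149.6 kb in the centre (5932340 to 6081910), held 4 replicate 1 peaks, no replicate 2 peak and 18 peaks of the combined list. The next, 136.0 kb in the centre (8292829 to 8428784), was empty in both replicates and had 4 combined peaks. A gap of 125.9 kb on the right arm (10659121 to 10784972) was likewise empty in both, with 2 combined peaks. The other gaps among the 5 longest were on the left arm. That of 130.3 kb (3683298 to 3813576) held 5 replicate 1 and 4 replicate 2 peaks that did not meet, and that of 125.9 kb (1471011 to 1596930) held 5 and 1.

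**Figure D4:**
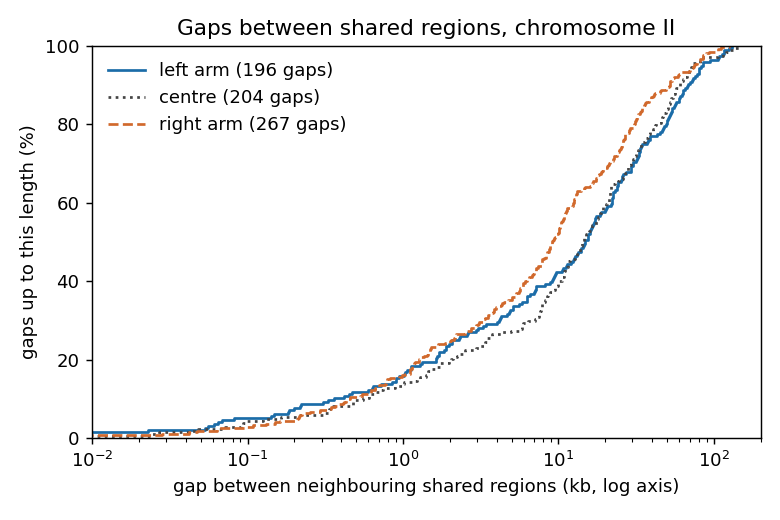
Cumulative share of gaps (vertical axis, %) up to a given length (horizontal axis, kb, log scale) between neighbouring shared regions, by zone of chromosome II. The right arm's dashed line lies to the left at middle lengths, with a median of 9.09 kb, against 14.8 kb on the left arm and 14.5 kb in the centre.

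Clusters were few. Joining shared regions under 1000 bp apart left 489 alone, 64 pairs and 14 clusters of 3 or more, which together held 51 regions (7.64%). The left arm had 5 clusters, the centre 3 and the right arm 6. The longest, in the centre (9807960 to 9824575, 16.6 kb), was nearly solid, since its 4 shared regions filled 97.6% of it. Replicate 1 had 5 peaks there, replicate 2 had 8 and the combined list 2, and its highest replicate scores were 1917.41 and 2098.40. Its highest combined score was only 25.69, below the median of 32.84 over all shared regions. The second, on the right arm (13817694 to 13830005, 12.3 kb), had the most regions, 8, each from 1 peak per replicate. Its highest scores were 1741.59 and 1879.59 in the replicates and 165.46 in the combined list. It lies inside the fullest 5% of the chromosome.

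The next 3 clusters were shorter. One on the left arm (3940197 to 3946595, 6.40 kb) held 4 regions with highest scores of 309.74 and 450.93. One in the centre (9617149 to 9622403, 5.26 kb) also held 4, with 634.52 and 715.79. One on the left arm (1031674 to 1036535, 4.86 kb) held 3 and reached 3100 in both replicates. By the combined list, the highest scores of these 3 clusters were 18.49, 49.33 and 98.03. Over the 14 clusters, the highest score ran from 182.85 to 3100 in replicate 1 and from 132.41 to 3100 in replicate 2. Whether clusters lie in repeated sequence was not tested.

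The strongest shared regions were spread over the chromosome. By the combined score, 3 of the first 10 lay on the left arm, 4 in the centre and 3 on the right arm, and each was a single peak in both replicates. The strongest was the 5180 bp region near the right end (15137764 to 15142943, combined score 224.57, 3100 in both replicates). The second, at 14561441 to 14562179, was only 739 bp wide, with a combined score of 197.61 and replicate scores of 1676.08 and 1876.90. The third, at 14991301 to 14994248 (191.80), and the fourth, at 9201831 to 9203397 (188.15), were at 3100 in both replicates.

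The remaining 6 had combined scores from 186.32 to 165.56. On the left arm they lay at 4047788 to 4048449, 2001796 to 2004015 and 2973763 to 2974437. In the centre they lay at 9974795 to 9975405, 9631702 to 9634775 and 9054198 to 9055078. Widths among the 10 ran from 611 to 5180 bp, so a high combined score did not need a wide region. A different count favoured the left arm. Of the 18 shared regions at 3100 in both replicates, 10 were on the left arm, 3 in the centre and 5 on the right arm, although the left arm had the fewest shared regions.

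Wide regions were few and held a large part of the covered bases. Of the 668, 55 shared regions (22 on the left arm, 15 in the centre, 18 on the right arm) were at least 1500 bp wide, and they held 29.4% of the shared bases. The widest, 9068 bp on the left arm (3159534 to 3168601), was 1 peak in replicate 1 (score 3100) and 4 peaks in replicate 2 (highest score 2912.80). The second, 7384 bp in the centre (9814443 to 9821826), was likewise 1 peak against 4, with scores of 1194.74 and 1063.64, and lies inside the longest cluster. The third, 5589 bp in the first 1 Mb (693647 to 699235), was 4 peaks in replicate 1 and 1 in replicate 2, all lists placing it high. The fourth was the strongest region of the chromosome, at 15137764.

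The next 6 by width ran from 4526 to 3448 bp. They lay at 8743255 to 8747780, 8288306 to 8292828, 9807960 to 9812237, 4641149 to 4645196, 6504854 to 6508718 and 10335890 to 10339337. Ranks within the lists could differ in these. The region at 6504854 was at score percentile 71.3 of the peaks of II in replicate 1 and 96.3 in replicate 2. The region at 10335890 was at percentiles 61.1 and 93.7.

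The combined list ranked wide regions lower than the replicates did. The 10 widest had a median score percentile of 98.2 by replicate 1 and 96.9 by replicate 2, but 91.8 by the combined list. The 9068 bp region was at percentile 85.9 there and the 7384 bp region at 74.1. Only 1 of the 10 widest was among the 10 highest combined scores. The 10 widest were chosen by width in the replicates, where score rises with width. Their high replicate percentiles thus follow in part from the choice. Percentiles of the lists are also not on 1 scale. All shared regions had median percentiles of 62.3 and 60.2 by replicates 1 and 2 and 82 by the combined list. Over all peaks of II, the Spearman correlation of width with score was 0.85 and 0.86 in the replicates, and 0.65 in the combined list, with no p. Of the 107 shared regions of at least 1000 bp, 45 had a combined score below the median of all shared regions, 32.84. The other 62 were at or above it, with a median combined score of 88.0. Among regions under 1000 bp, 289 were below it and 272 at or above it, so wide regions were not the lower group by this measure. These 45 had median replicate scores of 388.2 and 242.2 and a median width of 1424 bp. They were spread as 16 on the left arm, 12 in the centre and 17 on the right arm. This group was picked out after the scores were seen. The replicate and combined lists came from different caller versions, and the part of the caller in this pattern was not tested.

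**Figure D5:**
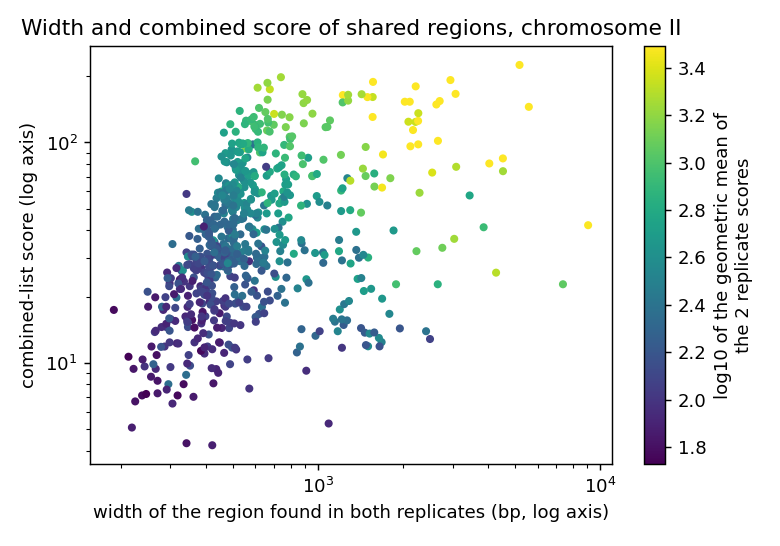
Combined-list score (vertical axis, log scale) against width in bp (horizontal axis, log scale) for the 668 shared regions of chromosome II, coloured by the log10 of the geometric mean of the replicate scores. A narrow limb rises steeply below 1000 bp. Of the 107 regions of at least 1000 bp, 45 stay under the median score of 32.84 and 62 are at or above it.

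The combined list added many weak peaks on II. Of its 1809 peaks, 656 (36.3%) overlapped a peak of both replicates, against 37.7% over all nuclear chromosomes. Another 203 (11.2%) met a peak of replicate 1 but none of replicate 2, against 12.3% over all nuclear chromosomes. The reverse held for 142 (7.85%), against 8.29%. No replicate had a peak at the other 808 (44.7%), a class that makes up 41.7% over all nuclear chromosomes. Their median score was 5.1, compared with 32.2 for peaks found in both. The right arm held 37.9% of the peaks found in neither replicate and 39.6% of those found in both, the largest share of the 3 parts in each of these classes. Peaks that met replicate 1 alone were more even, with 66 on the left arm, 69 in the centre and 68 on the right arm. Those that met replicate 2 alone numbered 38, 51 and 53 in the same order. Every shared region overlapped a combined-list peak. Of the replicate peaks of II, 99.0% of replicate 1 and 99.2% of replicate 2 did so, which is a description, since the list covers the same experiment. Their share over all nuclear chromosomes is not given here.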

How the data were processed

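The data are 3 deposited peak lists, 1 for each ZHP-3 ChIP replicate and 1 for the series. Per the labels' protocols, ground worms were fixed in 1% formaldehyde for 10 min before sonication, and each ChIP used 5 µg of antibody. BWA and ce10 are named in the submitters' processing notes. Per the file headers and source columns, the build is WormBase WS220, the authors called replicate peaks with MACS and the series list with MACS v2. Each deposited score comes from the authors' peak caller, on a scale that is not stated. Likewise not given in the sources used here are the caller's settings, its control and which libraries entered the series list. The lists give no read counts, so depth is unknown and no interval needing it was computed.

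Peaks and shared regions were placed in zones and 100 kb windows by their midpoint. The length of II, 15279348 bp, is the last base of the combined list. Peaks overlapped from 1 bp, and shared regions merge overlapping peaks of both replicates. Regions were named by fixed rules: the 10 highest by combined score, the 10 widest, the 5 longest clusters and gaps, the outermost 3 at each end, the 3 fullest and the emptiest 100 kb windows, and the 5 strongest peaks without a partner; others, such as regions at the tied score of 3100, were chosen after their values were seen. Members and groupings were chosen with earlier results of these data known. SciPy 1.17.1, pandas 2.3.3 and NumPy 2.4.6 under Python 3.11.15 gave the values, and matplotlib 3.10.9 the figures. The overlap code was tested on simulated lists. The input samples were left out, since no list of theirs was used here.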

Additional observations from a re-analysis of the deposited data

How the results depend on the processing

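No paired analysis was possible because the inputs with the same replicate numbers were not analysed here, which leaves the ChIP group alone. In the alternatives run, the right arm stayed the densest zone, the mean arm to centre ratio stayed above 1 and the left to right end ratio below 1. The order of left arm and centre did not hold: their relative densities were 0.926 and 0.921, and the left arm was the lower with bounds at 5 and 12 Mb, with close peaks joined (0.915) and without replicate 1. Leaving out a replicate gave relative densities (zone over whole chromosome) of 0.911 to 0.940 for the left arm, 0.911 to 0.931 for the centre and 1.15 to 1.16 for the right arm, arm to centre ratios of 1.11 to 1.15 and left to right end ratios of 0.61 to 0.71; with 2 replicates such values always lie within 1 SD of the mean. Bounds at 5 and 12 Mb gave 0.902, 0.978 and 1.20 for the zones and an arm to centre ratio of 1.04 (0.99 in replicate 2). Without the fullest 5% of the chromosome, an alternative added after seeing the data, the zones were at 0.963, 0.959 and 1.09 and the ratio at 1.07. Joining peaks under 1000 bp apart, also added, gave 0.937 for the centre and a ratio of 1.10. The ratio was 1.08 in the higher-scoring 50% and 1.09 in the combined list, where the left to right end ratio was 0.583. A 50% reciprocal overlap lowered the mean share of peaks with a partner to 68.1%, against 77.9%, and the combined-list peaks in both replicates to 30.1%. The higher-scoring 50% gave 352 shared regions, and 68.8% of combined-list peaks in both. Joining under 500 and 2000 bp gave 7 and 25 clusters. The median gap was 6776 bp between peaks of either replicate and 3340 bp in the combined list. The causes were not tested, except that fewer or more peaks enter by construction. Unknown depth limits any reading of peaks called in 1 replicate only.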
